A study of Mus musculus with 2 samples.

Results

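Chromatin accessibility at 9 genes of the Notch pathway was compared between the 2 ATAC-seq libraries of the series, which were made from mouse CD8+ T cells. In ATAC-seq a transposase cuts and tags DNA that is not packed away, and a peak is a stretch with more tags than its surroundings. The members are the receptors Notch1, Notch2 and Notch3, the nuclear factors Rbpj, Maml1, Maml2 and Maml3, and the response genes Hes1 and Dtx1. Each locus was the span of the gene in mm10 with 20 kb on each side. The 9 loci held 164 of the 85137 control peaks and 132 of the 64910 treatment peaks on chromosomes 1 to 19, X and Y, and no peak belonged to more than 1 locus. A library titled control and a library titled treatment were available, 1 each, and the series title spells the cells Peml-1. A further label field gives "Treatment" for the first and "Combined treatment" for the other, so it is not stated what either library received. Beyond the name Peml-1, strain and genotype are not given in the sources used here. Age, agent, dose and time are not given either, nor whether animals were pooled. Without replicates no difference below could be set against replicate spread, no test between groups was made, and each statement is about these libraries and not about the conditions.

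Notch receptors sit in the cell membrane and are cut when a ligand of the Delta or Jagged family on a neighbouring cell pulls on them. The freed intracellular part enters the nucleus, joins the DNA-binding protein RBPJ and recruits a Mastermind-like coactivator (MAML), and together they switch on genes such as Hes1 and Dtx1. In the thymus Notch1 drives T lineage commitment, and in mature CD8+ T cells Notch1 and Notch2 are known to take part in effector differentiation.

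All 4 T cell genes checked (Cd3e, Cd3d, Cd3g and Cd247) and both CD8 genes had a start peak in both libraries. A start peak is one within 1 kb of a listed start of the gene or, where none is listed, of either end of its span. None of 3 B cell genes and none of 2 NK cell genes had one in either, and their loci held 17 and 16 peaks (B cell, control and treatment) and 14 and 10 (NK cell). Of 4 myeloid genes 2 had a start peak in both libraries and Lyz2 and Csf1r in control only, with 27 and 21 locus peaks. Of 3 melanocyte genes Mitf had a start peak in both, Sox10 in control only and Tyr in neither, with 13 and 5 locus peaks. Cd4 had a start peak in both libraries and Foxp3 in neither. The part of other cells in the results below was not tested.

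All 9 members had a start peak in both libraries, against 61.5% of all protein-coding genes. Hes1, with no listed start, counted through peaks within 1 kb of the ends of its span, neither of which lay under a peak, and Maml2 counted through the first of its listed starts. A start peak in control only or in treatment only was found at 0 members, against 4.24% and 0.233% of all genes. With the control list reduced to the length of the treatment list, 8 of 9 members had a start peak in both, since the weak Notch3 start peaks left the control list. The DNA just before the start of 4 members that these peaks cover is shown first, because the start peaks were the regions that differed least between the libraries. Windows of 250 bases before the start came from RefSeq (GRCm38.p6, the assembly of mm10), which matched 8 of the 9 members, all but Hes1. Both libraries had a peak over the whole of the windows printed here. The capitals mark TGGGAA or, on the opposite strand, TTCCCA, the core letters bound by RBPJ.
Notch1, chr2:26503823-26504072, minus strand: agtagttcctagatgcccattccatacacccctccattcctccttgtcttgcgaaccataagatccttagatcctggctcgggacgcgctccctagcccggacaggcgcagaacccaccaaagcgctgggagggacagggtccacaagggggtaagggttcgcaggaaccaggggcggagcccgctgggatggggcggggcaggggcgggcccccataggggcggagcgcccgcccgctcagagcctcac
Notch2, chr3:98013288-98013537, plus strand: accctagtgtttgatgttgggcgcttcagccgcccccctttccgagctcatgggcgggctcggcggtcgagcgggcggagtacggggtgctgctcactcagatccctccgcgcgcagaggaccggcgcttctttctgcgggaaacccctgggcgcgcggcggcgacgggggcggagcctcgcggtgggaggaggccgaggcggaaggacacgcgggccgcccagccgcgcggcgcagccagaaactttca
Rbpj, chr5:53590096-53590345, plus strand: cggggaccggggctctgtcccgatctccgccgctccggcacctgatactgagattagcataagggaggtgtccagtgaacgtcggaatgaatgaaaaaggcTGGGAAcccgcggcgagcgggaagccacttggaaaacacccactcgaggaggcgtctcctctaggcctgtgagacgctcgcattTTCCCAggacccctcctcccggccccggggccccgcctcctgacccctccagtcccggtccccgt
Maml3, chr3:52105007-52105256, minus strand: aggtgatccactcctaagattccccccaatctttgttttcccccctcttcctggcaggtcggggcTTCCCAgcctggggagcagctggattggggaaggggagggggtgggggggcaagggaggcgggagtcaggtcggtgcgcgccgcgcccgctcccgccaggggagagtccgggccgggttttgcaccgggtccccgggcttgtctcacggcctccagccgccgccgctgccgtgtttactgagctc
The Rbpj window held the core letters 2 times, at position −149 from the start on the same strand and at −65 on the opposite strand. A second Rbpj start is listed at 53590486, and its window shares the latter match. The Maml3 window held 1 match, at −185 on the opposite strand. At Maml2 the match was in the window of the second start, at 13662460, which no peak touched in either library. The windows of Notch1, Notch2, Notch3, Maml1 and Dtx1 had none, nor had the window of the first Maml2 start. Of all 21263 windows, 20.9% held the core, as did 4 of the 10 windows of the members. The longer form GTGGGAA, which contains the core, was in 5.26% of all windows and in 0 of 10. These are matches of letters, not sites of binding.

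**Figure D1:**
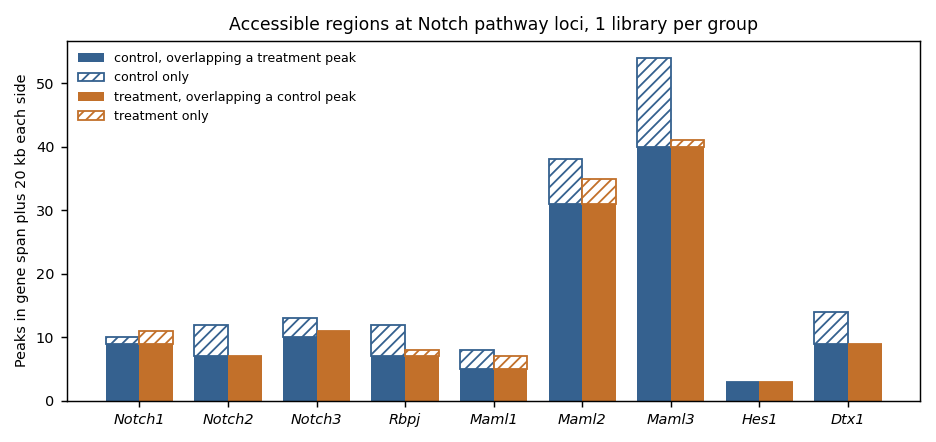
Number of peaks in the span of each gene with 20 kb on each side (vertical axis) in control (left bar) and treatment (right bar), 1 library each. Hatched segments are peaks with no overlap in the other library. Maml3 had the most peaks and the largest gap, 54 against 41, but its ratio of 0.759 lay near the 0.762 over all peaks. The lowest ratio was 0.583, at Notch2, and Notch1 was the single gene with more peaks in treatment.

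Of the 9 loci, 7 had fewer peaks in treatment, Notch1 had 1 more and Hes1 as many. Among all genes with any locus peak the shares were 64.9% fewer, 7.36% more and 27.7% as many. Summed, treatment had 0.805 times the control number (95% exact interval 0.635 to 1.02, counting error only), beside 0.762 over all peaks and 0.773 over peaks within 20 kb of a protein-coding gene. Of the control peaks 43 overlapped no treatment peak, or 26.2% (Wilson 20.1 to 33.4%), against 29.2% of all control peaks and 27.9% of those within 20 kb of a protein-coding gene. Of the treatment peaks 10 overlapped no control peak, or 7.58% (4.17 to 13.4%), against 6.8% and 6.34%. These shares lie close to the genome-wide ones. The counts depended on the lengths of the lists: with the control list reduced to its strongest 64910 peaks, 1 member had fewer peaks in treatment, 6 had more and 2 as many.

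How strongly a region was opened was read from its summit. The fold is the authors' ratio of summit signal to local background in the same library. Summit coverage is the number of reads piled up there, recovered from the fold and p-value of each peak, and was whole for all 296 peaks of these loci. Coverage was set side by side without rescaling, and the read total of each library was not used here. The lowest background was 14.15 reads in the control list and 15.05 in the treatment list. Divided by the width of the narrowest peak of each list, these gave a ratio of treatment to control of 1.006. Whether that ratio measures the depth of the libraries was not tested. Intervals on a coverage ratio are exact binomial and cover counting error only. A pair is a control and a treatment peak that overlap each other and no other peak, and there were 120 pairs at these loci.

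Coverage was lower in treatment in 105 of the 120 pairs (84.9% of 58875 pairs genome-wide) and more than 1.5-fold lower in 64 (44.2% genome-wide). It was more than 1.5-fold higher in 2, both at Maml2 (2.6% genome-wide). The median ratio was 0.652 here and 0.705 over all pairs. The interval of the ratio lay wholly below 1 in 87 pairs, wholly above 1 in 4 and included 1 in 29. The value of 1 lies above the genome-wide median of 0.705, and the share of such intervals over all pairs is not given here. These 3 counts are therefore not a result about the members. Fold, which is divided by each library's own background, was lower in 82 (75.6% genome-wide) with a median ratio of 0.879 against 0.836. It was more than 1.5-fold lower in 25 pairs (27.3% genome-wide) and more than 1.5-fold higher in 2 (1.84%). Widths were smaller in treatment in 93 pairs (78.4% genome-wide), with a median ratio of 0.896 against 0.912. More than 1.5-fold narrower were 19 (14.7%) and more than 1.5-fold wider 2 (2.37%). Coverage thus differed more than fold or width did.

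Summit coverage at start peaks was nearer to equal in the libraries than in the rest of the loci, where it was mostly lower in treatment. At the 12 pairs within 1 kb of a member's own start, or of either end of Hes1, the median coverage ratio was 0.895, from 0.544 to 1.10, and 2 were more than 1.5-fold lower (26.6% of all pairs at gene starts). At the other 108 pairs it was 0.629, and 62 were more than 1.5-fold lower (49.4% of all pairs away from gene starts). Maml3 gave 33 of these 62, from 38 pairs. Over the genome the medians of coverage were 0.834 at gene starts and 0.671 away from them, so the members follow the same order. By fold the median ratio was 1.04 at the 12 pairs and 0.852 at the 108, beside 0.970 and 0.789 over the genome. Counting the starts of neighbouring genes too, 14 control peaks, 8.54%, were at a gene start, against 18.0% of all control peaks, and 13 treatment peaks, 9.85%, against 21.3%. Of these, 1 was found in control only, at Rasal1 beside Dtx1 (10.5% genome-wide), and 0 in treatment only (0.997% genome-wide). Away from gene starts 42 of 150 control peaks, 28.0%, were in control only (33.3% genome-wide), and 10 of 119 treatment peaks, 8.40%, in treatment only (8.37% genome-wide).

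**Figure D2:**
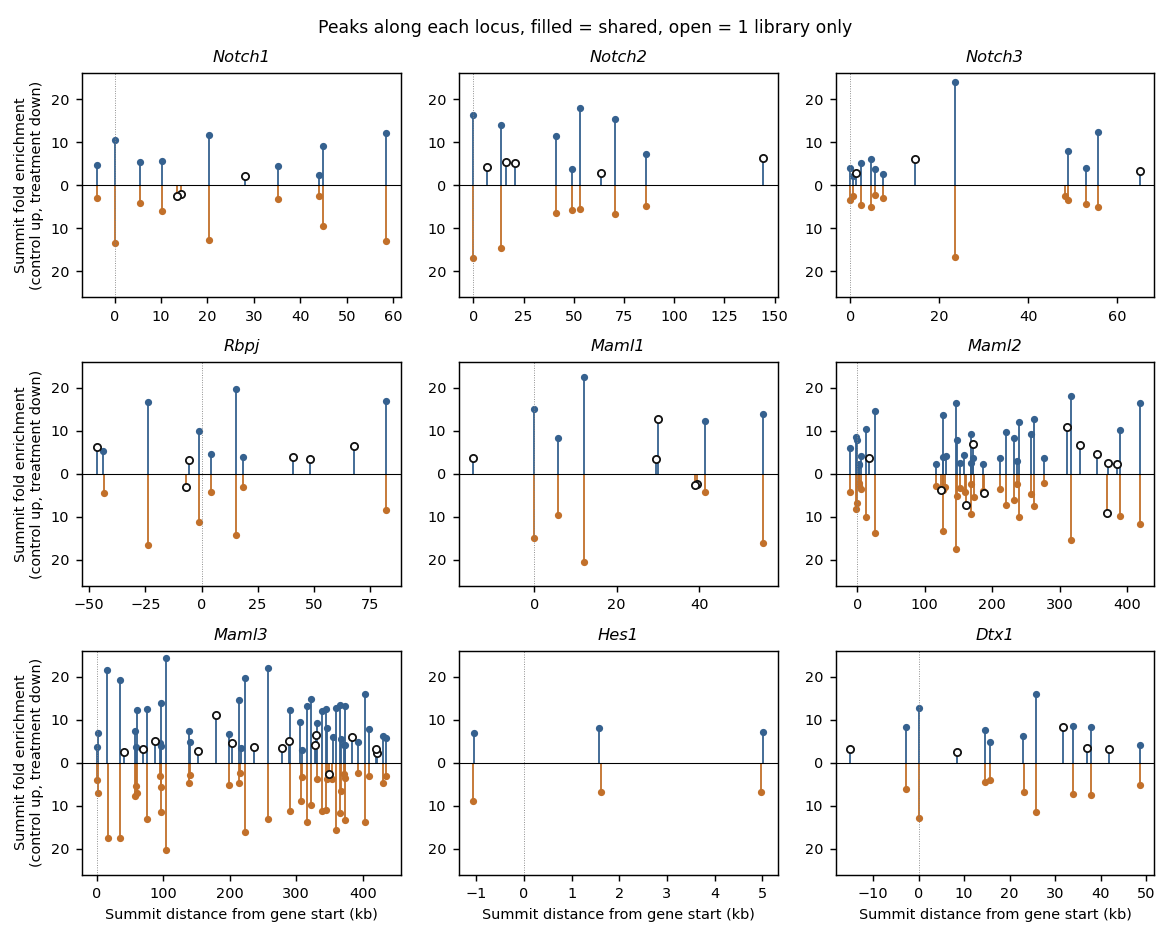
Each line is a peak, placed by the distance of its summit from the first gene start in the direction of transcription (horizontal axis, kb; for Hes1, from the lower end of the span), with its fold enrichment upwards in control and downwards in treatment. Filled points are shared peaks and open points are peaks of 1 library, which mostly have short lines, as at Notch2 and Maml3.

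Notch1 (chromosome 2, 26457902 to 26503822), the receptor of T lineage commitment, had 10 control and 11 treatment peaks. Its start peak, chr2:26502360-26504350 in control, had its summit 1 base before the start in both libraries. Coverage there was 1714 control and 1770 treatment reads, a ratio of 1.03 (0.966 to 1.10), and fold was 10.6 and 13.4. The peak of highest control fold, 12.2, was chr2:26444751-26446227, which lies at the start of the neighbour Sec16a, with 2030 and 2247 reads. Within the gene, 20391 bases from the start, chr2:26482970-26483960 had 445 and 486 reads, an interval of the ratio of 0.958 to 1.24. The other 6 pairs had fewer reads in treatment, with the lowest ratio, 0.491 (0.437 to 0.551), at chr2:26497582-26498616, 5499 bases from the start, with 892 and 438 reads. By fold the order differed: 6 of the 9 Notch1 pairs, 3 of these 6 among them, were higher in treatment, and the median fold ratio was 1.06, beside 0.836 over all pairs. A single weak peak was found in control only, chr2:26475557-26475750, with 38 reads.

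Notch1 was also among the members with peaks in treatment only, 2 of 11, or 18.2% (5.14 to 47.7%), beside 6.8% of all treatment peaks. They were chr2:26489392-26489709, with 128 reads and a fold of 2.16, and chr2:26490241-26490498, with 161 reads and a fold of 2.65. Both lay inside the gene, 3041 and 2252 bases from the nearest control peak. Their local background was high, 58.7 and 60.2 reads, against a lowest background of 15.05 in that library. With 50 kb on each side Notch1 had 15 peaks in each library, and counting the peaks nearest to it gave 11 and 11.

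Notch2 (chromosome 3, 98013538 to 98150367), the other receptor known in CD8+ effector cells, had 12 control and 7 treatment peaks. Its start peak, chr3:98013136-98014285, had 1018 control and 1119 treatment reads, a ratio of 1.10 (1.01 to 1.20). Inside the gene all 6 pairs had fewer reads in treatment, while fold was lower in 4 and higher in 2, chr3:98027082-98027727 (13.9 and 14.5) and chr3:98062536-98062830 (3.82 and 5.69). The peak of highest control fold, 17.9, was chr3:98066377-98067035, 53118 bases from the start, and it had 642 reads in control and 95 in treatment. That ratio, 0.148 (0.118 to 0.184), was the lowest of the 120 pairs. At chr3:98083802-98084529 there were 341 and 108 reads, a ratio of 0.317 (0.253 to 0.394). At the pair nearest the start, chr3:98027082-98027727, there were 613 and 453.

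All single-library peaks of Notch2 were in control, 5 of 12, or 41.7% (19.3 to 68.0%), an interval that includes the 29.2% of all control peaks. The 3 of highest fold were chr3:98157645-98157904, past the end of the gene, with 95 reads and a fold of 6.34, chr3:98029663-98030077 with 262 reads and 5.47, and chr3:98033943-98034201 with 129 reads and 5.02. For scale, the least covered treatment peak at the lowest background had 31 reads. Notch2 was the member that still had fewer peaks in treatment, 7 against 10, with lists of equal length.

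Notch3 (chromosome 17, 32120820 to 32166896), a receptor known from immature thymocytes and vascular muscle, had 13 and 11 peaks. The peaks at its start had the fewest reads among the start peaks of the set. The peak over the start, chr17:32166829-32167113, had 114 control and 87 treatment reads, a ratio of 0.763 (0.571 to 1.02). The other, chr17:32166093-32166342, had 69 and 66, a ratio of 0.957 (0.672 to 1.36). The strongest region in both libraries lay inside the gene, 23556 bases from the start, at chr17:32143068-32143759. It had 752 and 426 reads, a ratio of 0.566 (0.502 to 0.639), with folds of 23.9 and 16.8. Past the end of the gene, chr17:32110639-32111457 had 586 control and 102 treatment reads, a ratio of 0.174 (0.140 to 0.215). The 5 pairs between 2389 bases and 23556 bases from the start had ratios from 0.566 to 1.03.

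Control alone had 3 peaks at Notch3, 23.1% of 13 (29.2% of all control peaks), led by chr17:32152199-32152524 with 90 reads and a fold of 6.01. Treatment alone had 0 of 11 (Wilson upper bound 25.9%), beside 6.8% of all treatment peaks. The other control-only peaks were chr17:32101504-32101814 with 50 reads and chr17:32165325-32165697 with 90. A wide control peak, chr17:32117648-32118852, lay over 2 treatment peaks, the one such split at the 9 loci.

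Rbpj (chromosome 5, 53555779 to 53657445), which encodes the DNA-binding factor of the pathway, had 12 control and 8 treatment peaks. The peak over both listed starts, chr5:53588955-53591576, was 2622 bp wide in control and 2560 bp in treatment, the widest at the 9 loci. Its summit, on the same base in both, had 1833 and 1654 reads, a ratio of 0.902 (0.844 to 0.965). Away from the starts all 6 pairs had fewer reads in treatment. The peak of highest control fold, 19.8, was chr5:53605362-53605928, with 439 and 240 reads, a ratio of 0.547 (0.465 to 0.641). The peak of highest treatment fold, 16.5, overlapped chr5:53566040-53567361, inside the span but before the listed starts, with 683 and 404 reads. Downstream of the gene, chr5:53672293-53672653 had 254 and 132.

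Rbpj had 5 control-only peaks, 41.7% (19.3 to 68.0%), and 1 treatment-only peak, 12.5% (2.24 to 47.1%). Over all peaks these shares were 29.2% and 6.8%. Counted by nearest gene, it had 22 and 10 peaks in place of 12 and 8, and with lists of equal length 8 and 8. The control-only peaks of highest fold were chr5:53657994-53658238 (6.40, 96 reads), chr5:53543524-53543789 (6.15, 104 reads) and chr5:53630874-53631120 (3.89, 58 reads). The treatment-only peak, chr5:53582873-53583974, was 1102 bp wide with 57 reads. It ended 355 bases from another control-only peak, chr5:53584330-53584664, with 280 reads.

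Maml1 (chromosome 11, 50255634 to 50293131), a coactivator that joins the RBPJ complex, had 8 and 7 peaks. Its start peak, chr11:50291360-50292826, had 1779 control and 1561 treatment reads, a ratio of 0.877 (0.819 to 0.940). Fold was highest in both libraries 12046 bases inside the gene, at chr11:50279961-50280863, with folds of 22.6 and 20.4 and 665 and 495 reads. The control-only peak chr11:50261989-50262459, with a fold of 12.7 and 192 reads, was the strongest single-library peak of all 9 loci by fold. The nearest treatment peak was 8291 bases away. The other control-only peaks had 52 and 54 reads, and the treatment-only peaks chr11:50252722-50253015 and chr11:50253241-50253697 had 37 and 40, all near the lower end of their lists.

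Maml2 and Maml3, the other Mastermind-like coactivators, are genes of similar length, 413 kb and 418 kb, and held 92 of the 164 control and 76 of the 132 treatment peaks. Maml2 (chromosome 9, 13296561 to 13709533) had 38 control and 35 treatment peaks, of which 7 and 4 were found in 1 library. Maml3 (chromosome 3, 51687320 to 52105319) had 54 and 41, with 14 and 1. The control-only shares, 18.4% (9.22 to 33.4%) and 25.9% (16.1 to 38.9%), overlapped in their counting intervals. Both intervals include the 29.2% of all control peaks. The ratios of treatment to control peaks were 0.921 at Maml2 and 0.759 at Maml3, beside 0.762 over all peaks.

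Summit coverage set these genes further apart. At Maml3 it was lower in treatment in 39 of 40 pairs, more than 1.5-fold lower in 33, and the median ratio was 0.512. At Maml2 it was lower in 23 of 31 pairs, more than 1.5-fold lower in 10, and the median ratio was 0.793. The interval of the ratio lay below 1 at 36 Maml3 pairs and 15 Maml2 pairs. Such counts also depend on the number of reads in each pair, and the genome-wide share is not given here. Of the 153 protein-coding genes with at least 20 pairs in their locus, 2 had a lower median than Maml3 and 104 a lower median than Maml2. Among those genes the median was 0.722, with 0.542 and 0.942 as the 5th and 95th percentiles. Of the 9 members, 3 (Maml3, Rbpj and Hes1) had a median more than 1.5-fold lower in treatment, as had 34.8% of all genes with at least 3 pairs. Without Maml3 the median ratio of the remaining 80 pairs was 0.731, and 31 of them, 38.8%, were more than 1.5-fold lower.

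At the Maml3 start coverage was nearer to equal than at most of its locus. The peak over the start, chr3:52104690-52105401, had 814 control and 752 treatment reads, a ratio of 0.924 (0.836 to 1.02), and the wide one next to it, chr3:52101790-52104043, had 1517 and 1346. In both libraries fold was highest at chr3:52000051-52000641, 104709 bases inside the gene, with 1267 and 697 reads, a ratio of 0.550 (0.501 to 0.604). Towards the far end, chr3:51700892-51702180 had 1993 and 818 reads, and chr3:51758231-51758744 had 524 and 115. The lowest ratio of the gene, 0.203 (0.156 to 0.261), was at chr3:51890096-51890618, with 365 and 74. The single higher pair, chr3:52008440-52009042, had 270 and 287, an interval that includes 1 (0.897 to 1.26).

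Local background at the Maml3 pairs was lower in treatment as well, in 38 of 40, with a median ratio of 0.653 against 0.897 over all pairs. Fold, which divides by it, differed less than coverage, with a median ratio of 0.837 beside 0.836 over all pairs. At Maml2 the background ratio was 0.978 and the fold ratio 0.928. The part of regional background in the Maml3 coverage values was not tested.

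**Figure D3:**
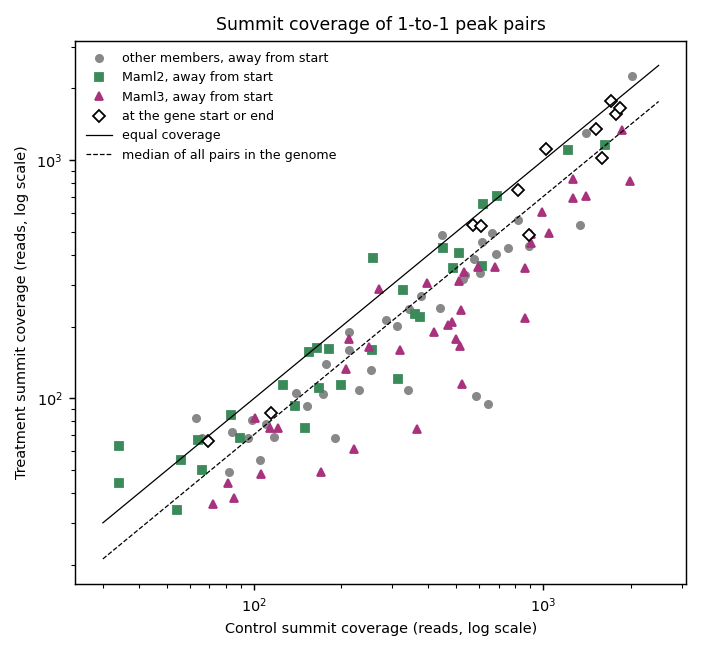
Summit coverage of the 120 pairs, control on the horizontal and treatment on the vertical axis, both in reads on log scales, 1 library each. Diamonds (start or end of the gene) lie near the line of equal coverage except for 1 Hes1 and 1 Maml2 pair, more than 1.5-fold lower, and most Maml3 triangles lie below the dashed line, the genome-wide median ratio of 0.705.

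Single peaks of Maml3 were mostly weak. The 3 control-only peaks of highest fold were chr3:51924489-51924993, with 166 reads and a fold of 11.0, chr3:51774996-51775217 with 155 reads and 6.47, and chr3:51720423-51720719 with 89 reads and 5.94. In treatment only, chr3:51755618-51756213 had 89 reads.

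The Maml2 start peak, chr9:13297789-13298704, had 1597 control and 1020 treatment reads, a ratio of 0.639 (0.590 to 0.691), the lowest among the start peaks of the genes with a listed start. Away from that start, coverage was lower in treatment in 22 of 30 pairs and higher in 8. The peak of highest treatment fold, 17.6, overlapped chr9:13443352-13444062, with 1212 and 1105 reads, a ratio of 0.912 (0.840 to 0.990). That of highest control fold, 18.1, was chr9:13613711-13614389, with 326 and 286, a ratio of 0.877 (0.746 to 1.03). At chr9:13323052-13324122 there were 689 and 705 reads. The interval of the ratio lay above 1 at chr9:13470112-13470369, with 257 and 387 reads (1.28 to 1.77), and at the weak chr9:13483647-13484398, with 34 and 63 (1.20 to 2.90). The peak chr9:13468800-13469091, found in control only with 488 reads, had the most reads of any single-library peak here and lay 1013 bases from the nearest treatment peak.

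Of the other Maml2 peaks in control only, chr9:13608659-13609069 had 165 reads and a fold of 11.0 and chr9:13627588-13627830 had 99 and 6.60. Treatment alone had chr9:13667940-13668209 with 145 reads and a fold of 9.10, chr9:13459399-13459675 with 115 and 7.23, and chr9:13485142-13485697 with 71 and 4.49. The first of these ended 848 bases from a control-only peak of 37 reads.

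**Figure D4:**
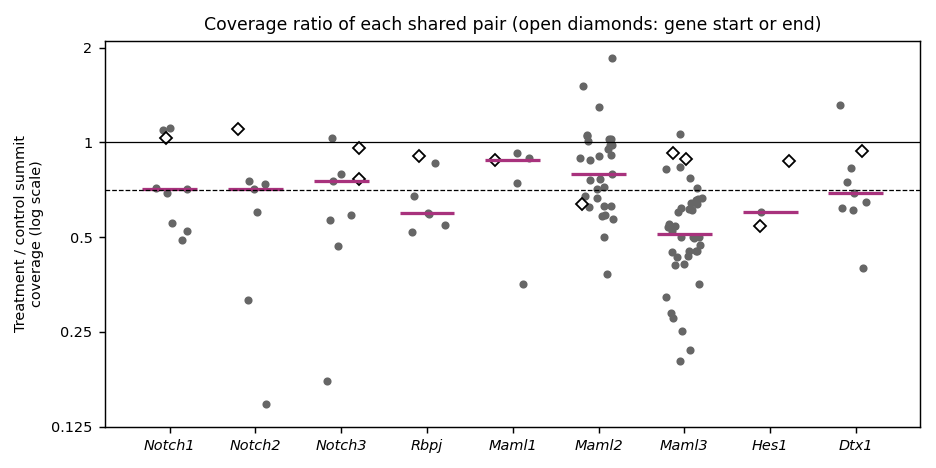
Ratio of treatment to control summit coverage of each pair (vertical axis, log scale) by gene. Bars are medians, the solid line is 1 and the dashed line the genome-wide median of 0.705. Maml3 has the lowest median, 0.512, and Maml1 the highest, 0.877, from 5 pairs.

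Hes1 (chromosome 16, 30065357 to 30067796), a repressor of the bHLH family and the classic target of Notch signalling, had 3 peaks in each library, all shared. With 50 kb on each side Hes1 had 7 and 5 peaks, and as the nearest gene 16 and 12. The shared peaks had 608 and 529 reads at chr16:30063362-30064468, 891 and 485 at chr16:30066448-30067308, and 529 and 318 at chr16:30069875-30070858. The ratios were 0.870 (0.773 to 0.979), 0.544 (0.486 to 0.609) and 0.601 (0.521 to 0.692). By fold the first was higher in treatment, 9.01 against 6.99, so at this peak the direction depended on the scale.

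Dtx1 (chromosome 5, 120680203 to 120711867), a ubiquitin ligase of the Deltex family that acts on Notch and is induced by it, had 14 control and 9 treatment peaks. The peak over its start, chr5:120711173-120712099, had 569 control and 533 treatment reads, a ratio of 0.937 (0.831 to 1.06). The strongest control peak of the gene, chr5:120685474-120686276, lay inside it, 25770 bases from the start. It had 1338 and 535 reads, a ratio of 0.400 (0.361 to 0.442), and folds of 15.9 and 11.5. By fold the start peak was the strongest in treatment, 12.9 against 12.7 in control. Beside the inner peak, chr5:120688394-120689074 had 536 and 331 reads. The start peak thus had fewer reads than the inner peak in control and about as many in treatment.

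All 5 single-library peaks of Dtx1 were in control, 35.7% of 14 (16.3 to 61.2%), an interval that includes the 29.2% of all control peaks. The strongest, chr5:120679623-120680089, had 224 reads and a fold of 8.31 and lies near the start of the neighbour Rasal1. The next were chr5:120674430-120674751 with 111 reads and chr5:120669625-120669916 with 75. With lists of equal length Dtx1 had 8 control and 9 treatment peaks.

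Peaks of 1 library were the weak ones of their lists, though those of treatment less so than over the genome. The 43 control-only peaks had a median of 75 reads, against 365 for the shared control peaks, and 32 of them had fewer than 100 reads (58.4% of all control-only peaks). The 10 treatment-only peaks had a median of 98 reads, against 196 for the shared ones, and 5 had fewer than 100 (81.7% of all treatment-only peaks). Over the genome the medians of single-library peaks were 86 and 51 reads. Of the 43, 6 lay within 1 kb of a treatment peak, and of the 10, 4 lay within 1 kb of a control peak. The genome-wide shares for this distance are not given here, so it cannot be said whether these counts are unusual.

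**Figure D5:**
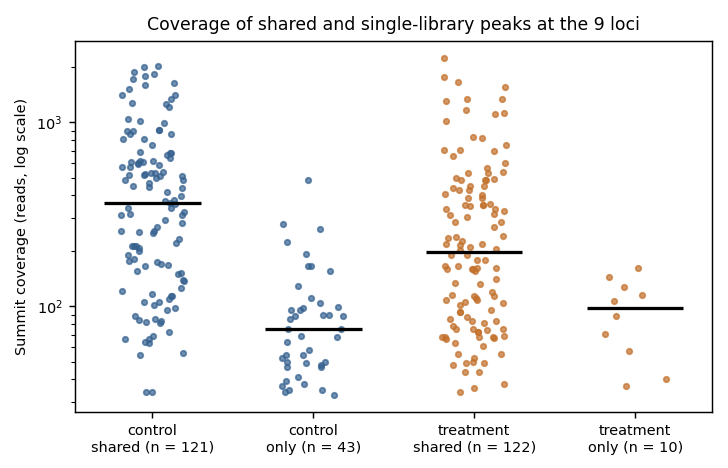
Summit coverage (reads, log scale) of every peak at the 9 loci, by library and by whether it overlaps a peak of the other library. Bars are medians, 365 and 75 reads in control and 196 and 98 in treatment, and no single-library peak exceeds 488 reads.

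The wider pathway was read from 56 further genes. Their loci held 457 control and 376 treatment peaks, a ratio of 0.823, each gene counted on its own, with 40 genes having fewer in treatment, 3 more and 13 as many. Over all genes with a locus peak the shares were 64.9%, 7.36% and 27.7%, and the ratio over all peaks was 0.762, so the 40 of 56 lies near the background, against which the counts of the groups below are to be read. A start peak was present in both libraries at 54 and in neither at Notch4, the receptor of endothelial cells, and Ptcra, which encodes the pre-T cell receptor alpha chain. The genes that cut the receptor, ADAM proteases and gamma-secretase subunits, had 53 and 40 peaks, with 8 of 9 lower. Among them the gamma-secretase subunits Aph1b had 6 and 2 peaks and Aph1c 9 and 5, while the catalytic subunit Psen2 had 7 and 10, with 3 found in treatment only. Aph1b and Aph1c are close copies, and whether reads of either were placed at the other was not tested. The ligands had 29 and 22, led by Dll3 with 8 and 5.

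Nuclear partners had 140 and 114 peaks, with 10 of 13 genes lower. The acetyltransferases Ep300 had 8 and 4 and Crebbp 11 and 7, and the corepressor Tle3 14 and 10. Kat2b, another acetyltransferase, had 16 and 19, with 6 peaks in treatment only. Among 12 modulators, 8 were lower, among them the endocytic inhibitor Numb with 11 and 6, and the ubiquitin ligases Mib2 and Neurl1a with 6 and 3 each. Of the sugar-adding enzymes that tune ligand choice, Mfng had 9 and 6 peaks and Lfng 7 and 7. Further genes induced by Notch had 89 and 79 peaks, with 6 of 11 lower and 0 higher. Il2ra, the alpha chain of the IL-2 receptor, had 22 and 21, Tcf7 had 15 and 15 and Gzmb, which encodes granzyme B, 7 and 5. With lists of equal length Tle3, Numb and Mfng had more peaks in treatment, and Crebbp (7 and 7) and Dll3 (5 and 5) had as many. With peaks of −log10 q-value 10 or more Kat2b had 15 and 14, Crebbp 8 and 7 and Tle3 10 and 9. In the gene span alone, without the flanks, most differences were smaller. Ep300 had 3 and 2 peaks there, Tle3 8 and 7, Aph1b 3 and 2, Aph1c 5 and 4 and Dll3 3 and 2. Mib2 had 3 and 2, Mfng 2 and 1, Numb 6 and 3 and Neurl1a 3 and 1. In the span alone the difference stayed the same at Crebbp (8 and 4), Kat2b (13 and 16) and Psen2 (2 and 5).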

How the data were processed

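The authors deposited 1 peak list per library. Per the submitters' processing notes the tools were cutadapt 2.5, Bowtie2 2.3, Picard 2.20 and MACS2, on mm10. Read filters, any transposase shift and caller settings are not given in the sources used here. Each deposited peak has a score, a fold enrichment (a ratio), a −log10 p-value and a −log10 q-value, of which the lowest was 2.00 in each list. The lists held 85285 (control) and 65098 (treatment) peaks.

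Only peaks on chromosomes 1 to 19, X and Y entered. Peaks overlapping by at least 1 bp were shared. Summit coverage was taken as the whole number of reads for which the fold, with 1 added to reads and background, and a Poisson tail gave the deposited −log10 p-value to within 0.001. This held for 99.994% of control and 99.977% of treatment peaks, and the step was tested on simulated data. Read totals were not used here. Gene spans were those of RefSeq GRCm38.p6 (21887 protein-coding genes). A start peak touched 1 kb around a RefSeq start, listed for 17492 genes, or around either end of the other spans. Exons were not used here. Percentages carry 95% Wilson intervals. Python 3.11.15, pandas 2.3.3, numpy 2.4.6 and scipy 1.17.1 were used.

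All 9 members were named, with their start peak, their peak of highest fold in each library and up to 3 single-library peaks per library by fold. Other peaks given were chosen after their values were seen. Of the wider list, genes differing by 3 or more peaks were named, except 1 that is not reported here, and Notch4, Ptcra, Lfng, Il2ra, Tcf7 and Gzmb beside them. Members and lists were chosen with earlier results of these data known, and the promoter letters after the files were read. Alternatives changed the locus, the overlap rule, the q-value minimum, the list length and the start window.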

Additional observations from a re-analysis of the deposited data

How the results depend on the processing

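No paired analysis was possible because each group has 1 library. Of 40 recomputed summary values 32 stayed within the counting interval, or within 1.5 times a count, of the reported value. With lists of equal length the control-only share was 13.0%, the treatment-only share 23.5% and the ratio of peak numbers 1.15, with 1 member having fewer peaks in treatment. The difference then changed sign to 4 more peaks in treatment at Notch3, 1 at Maml1, 9 at Maml2, 1 at Maml3, 1 at Dtx1, 2 at Mfng, 1 at Numb and 1 at Tle3. At Rbpj (8 and 8), Crebbp (7 and 7) and Dll3 (5 and 5) no difference remained. The reduced control list, which lacks its weakest peaks by construction, left 8 of 9 members with a start peak in both libraries. With 50% reciprocal overlap the control-only share was 33.5% and the treatment-only share 17.4%, and with summits within 150 bp the latter was 15.2%. Recovered coverage in place of fold gave a median log2 ratio of −0.62 against −0.19, since the local background also differed. With peaks of −log10 q-value 10 or more the difference at Kat2b was −1. The locus widths tried (gene span alone, 50 kb, nearest gene) kept the summary values within these limits, with 213 and 171 peaks at 50 kb, but not those of each member. Hes1, with 3 and 3 peaks, had 7 and 5 at 50 kb and 16 and 12 by nearest gene, Rbpj had 22 and 10, Dtx1 7 and 6 and Maml1 6 and 6 by nearest gene, and Notch1 had 15 and 15 at 50 kb. Of 97 recomputed differences at single genes, 10 changed sign. Depth was known only through the peaks, and the least covered peaks at the lowest background had 29 and 31 reads. Leaving out a replicate was not possible with 1 library per group.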

Other observations

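Summits of paired peaks at these loci mostly stayed in place. The median distance between control and treatment summits was 12 bp in the 120 pairs and 5 bp over all pairs, and 12 pairs were over 100 bp apart (7.55% of all pairs). Of these, 6 were at Maml2, 5 at Maml3 and 1 at Rbpj, and the largest distance, 715 bp, was at chr3:51888103-51889318 in Maml3. The 17 pairs with at least 1000 control reads, of which 7 were at Maml3, had a median coverage ratio of 0.715, against 0.873 for all such pairs in the genome. More than 1.5-fold lower were 7 of the 17, against 15.4% of all such pairs, and 5 of the 7 were at Maml3. The others were the inner Dtx1 peak and the Maml2 start peak. By fold the median ratio of the 17 pairs was 1.001, beside 0.9996 for all such pairs. More than 1.5-fold lower by fold were 0 of the 17 (1.04% of all such pairs). Their median background ratio was 0.743, beside 0.859 for all such pairs.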
